A study of Homo sapiens with 6 samples.

Results

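Histone variants whose mRNAs carry poly(A) tails were examined in 6 RNA sequencing libraries, 3 from cells given DMSO, the vehicle, and 3 from cells given 500 nM of compound 28 for 4 h. Compound 28 is described by the series title as a degrader of CDK9, the kinase of P-TEFb that releases paused RNA polymerase II, and no exposure time is given for DMSO. The 9 genes, H2AFZ, H2AFV, H2AFX, H2AFJ, H2AFY, H3F3A, H3F3B, H1F0 and H1FX, were taken by symbol from the 32322 gene rows of the deposited table, where each had 1 row. All libraries are titled MDA-MB-231, an adherent line of triple-negative breast cancer, with a wild-type genotype label, and were made with a stranded mRNA kit that enriches poly(A) tails, so variant mRNAs were captured whereas most histone mRNAs, which end in a stem-loop, were not selected for. The labels do not tie the replicates to separate cultures; the p-values below reflect the spread among these 6 samples only, and that spread may be technical.

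The libraries go against their cell line label. The source and cell line fields name MDA-MB-231 for the first sample and a number 1 higher for each that follows, up to MDA-MB-236, against the same name in every title. Of 10 myeloid blood cell markers, all 10 had a mean of at least 5 CPM (counts per 1000000 gene reads) in DMSO, and their summed level was 3046 to 3500 CPM in DMSO and 3415 to 3542 CPM in compound 28. Of 8 markers of the named line used here, 5 reached that level, CAV1 had a mean of 0.0069 CPM in DMSO, and the list summed to 455 to 470 CPM in DMSO and 288 to 320 CPM in compound 28. The values below are therefore those of libraries labelled MDA-MB-231, and the part of cell identity in them was not tested. Reads in genes numbered 37186728 to 54830987 in DMSO and 28505897 to 34062330 in compound 28. Mitochondrial genes held 3.78% to 4.47% of gene reads in DMSO and 7.87% to 8.80% in compound 28.

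Nucleosomes wrap DNA around histones H2A, H2B, H3 and H4, and linker histone H1 binds where the DNA enters and leaves. Most histones are made in S phase from clustered genes without introns, whereas the variants are made throughout the cell cycle and replace them at particular sites. H3.3, the replacement form of H3, is deposited at active genes by the HIRA complex and at repeats by ATRX with DAXX. H2A.Z flanks promoters, H2A.X is phosphorylated beside DNA breaks, macroH2A carries a large non-histone domain and is found in silenced chromatin, and H1.0 accumulates in cells that stop dividing.

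With the authors' scaling, 2 of the 9 variants rose, 6 fell and 1 was not called in compound 28, whereas none rose when mitochondrially encoded or ribosomal protein mRNAs were held constant. The call was an adjusted p under 0.05 in limma on log2(normalized count + 1), adjusted by Benjamini-Hochberg over 18278 tested genes, and a normalized count is the read count divided by a size factor for its library. The same rule called 35.5% of all tested genes higher and 37.3% lower. The members' median log2 change was -0.79, against -0.03 over all tested genes, and 3 of the 9 changed at least 2-fold, against 8334 of the 18278 genes. All 9 passed the filter on low values. DMSO and compound 28 libraries did not overlap for 8 of the 9, and did not overlap for 75.7% of all tested genes. In bulk RNA, fewer cells of a type and less RNA per cell cannot be told apart.

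**Figure D1:**
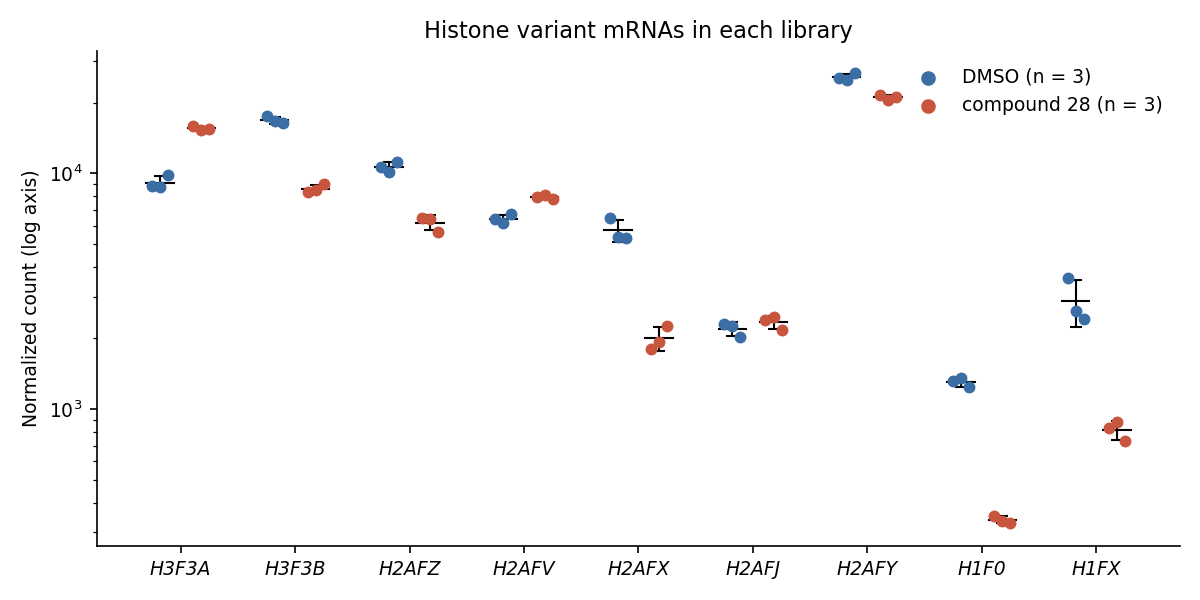
Normalized counts of the 9 variant mRNAs on a log axis; each point is a library (DMSO blue, compound 28 red, n = 3 each), with the horizontal line at the mean and the bar at ± SD. H3F3A and H2AFV lie higher in compound 28 (not so with mitochondrial or ribosomal protein scaling, nor for H2AFV with library sizes only), H2AFJ overlaps, and the other 6 lie lower, H1F0 and H1FX by the most.

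Both genes of H3.3 were abundant and, with the authors' scaling, moved in opposite directions; with mitochondrial or ribosomal protein scaling both were lower, H3F3B by more. H3F3A and H3F3B encode the same 136 residues with no difference, but their coding sequences of 411 bases differ at 88, so reads can be assigned to either gene. A stretch of both, bases 151 to 240 of the coding sequence in GENCODE 29, is printed to show how the 2 mRNAs are told apart; capitals mark the 22 bases that differ.
H3F3A: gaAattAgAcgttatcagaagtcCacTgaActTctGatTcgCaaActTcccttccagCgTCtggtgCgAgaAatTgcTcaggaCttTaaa
H3F3B: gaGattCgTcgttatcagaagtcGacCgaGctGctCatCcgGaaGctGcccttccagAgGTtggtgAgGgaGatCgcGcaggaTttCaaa

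H3F3A (ENSG00000163041, chromosome 1) had normalized counts of 8812, 8790 and 9827 in DMSO and 15838, 15352 and 15400 in compound 28. Every compound 28 library was above every DMSO library. The mean went from 9143 ± 592 to 15530 ± 268 (SD, n = 3 each), a log2 change of 0.77 (SE 0.08) with an adjusted p of 1.2e-05 by limma, or 1.70-fold higher, and the sign turned to -0.69 when mitochondrially encoded mRNAs and to -0.35 when ribosomal protein mRNAs were held constant. H3F3B (ENSG00000132475, chromosome 17) had normalized counts of 17451, 16645 and 16326 in DMSO and 8365, 8526 and 8986 in compound 28. The groups were again apart, in the opposite order, with means of 16807 ± 580 and 8625 ± 322 (SD, n = 3 each). The log2 change of H3F3B was -0.96 (SE 0.08, limma adjusted p 1.9e-06), or 1.95-fold lower, and it was lower under all scalings tried. The authors' deposited table gives 0.76 for H3F3A and -0.96 for H3F3B as log2 fold changes.

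The ratio of H3F3B to H3F3A within a library does not depend on how libraries are scaled. It was 1.98, 1.89 and 1.66 in DMSO and 0.528, 0.555 and 0.583 in compound 28. All 3 compound 28 libraries thus had a lower ratio than any DMSO library. The ratio is one of counts, and the main transcript of H3F3B is 2705 bases long against 1308 for H3F3A, so it does not say which mRNA had more molecules. The log2 ratio differed by -1.73 between the groups, a 3.31-fold lower ratio, with a two-sided exact permutation p of 0.1, the smallest that 3 against 3 libraries allow, and 0.125 adjusted over the 5 ratios computed. As a share of counts, H3F3A made up 35.2% ± 2.09 of both genes in DMSO and 64.3% ± 1.14 in compound 28 (SD, n = 3 each). Their sum went from 25950 ± 450 to 24155 ± 258, 6.92% lower with groups that did not overlap (exact permutation p = 0.1, n = 3 each), but the sum, unlike the ratio, depends on scaling and was 6.80% higher with upper-quartile factors.

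Copies of H3F3A limit its count. Of the 75-base windows of its main transcript, 72.7% were found in no other transcript of GENCODE 29, against 96.7% for H3F3B, and the rest were shared mainly with the processed pseudogenes H3F3AP4 and H3F3AP6. H3F3AP4 was counted at 1063 ± 39.3 in DMSO and 1720 ± 59.2 in compound 28 (SD, n = 3 each). Its log2 change of 0.69 (SE 0.09, limma adjusted p 4.2e-05) had the size and, under each scaling, the sign of that of H3F3A. H3F3AP6 was at 96.7, 77.1 and 61.2 in DMSO and 122, 69.2 and 117 in compound 28 and was not called (limma adjusted p = 0.27). Alignments that were not unique, which enter no gene, made up 10.9% to 11.5% of all counted alignments in DMSO and 18.4% to 25.4% in compound 28, and their part in the value of H3F3A was not tested.

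H2A.Z showed the same division between its pair of genes under the authors' scaling. H2AFZ, which encodes H2A.Z.1, and H2AFV, which encodes H2A.Z.2, differ at 76 of 387 coding bases and at 3 of 128 residues. H2AFZ (ENSG00000164032, chromosome 4) had normalized counts of 10674, 10161 and 11143 in DMSO and 6482, 6425 and 5664 in compound 28. All 3 compound 28 libraries were below the DMSO libraries. The mean of H2AFZ went from 10659 ± 491 to 6190 ± 457 (SD, n = 3 each), a log2 change of -0.79 (SE 0.09, limma adjusted p 1.5e-05), or 1.72-fold lower under the authors' scaling and lower under the 6 others. H2AFV (ENSG00000105968, chromosome 7) had normalized counts of 6398, 6172 and 6706 in DMSO and 7948, 8092 and 7770 in compound 28. The compound 28 libraries were all higher, with means of 6426 ± 268 and 7937 ± 161 (SD, n = 3 each). Its log2 change was 0.31 (SE 0.08, limma adjusted p 0.0045), or 1.24-fold higher, but -0.15 with library sizes only (adjusted p 0.097), -1.15 with mitochondrial and -0.81 with ribosomal protein scaling.

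The ratio of H2AFV to H2AFZ was 0.599, 0.607 and 0.602 in DMSO and 1.23, 1.26 and 1.37 in compound 28. The compound 28 libraries all had a higher ratio than the DMSO libraries. The log2 ratio differed by 1.09, a 2.13-fold higher ratio, with a two-sided exact permutation p of 0.1, the smallest possible, and 0.125 adjusted over 5 ratios. H2AFZ supplied 62.4% ± 0.160 of the sum of both in DMSO and 43.8% ± 1.44 in compound 28 (SD, n = 3 each). That sum went from 17085 ± 758 to 14127 ± 602, 17.3% lower without overlap (exact permutation p = 0.1, n = 3 each), and with upper-quartile factors its change was -4.99%, with overlap. Of the 75-base windows, 98.1% were unique to H2AFZ and 88.4% to H2AFV, whose other windows were shared with the pseudogene H2AFVP1.

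**Figure D2:**
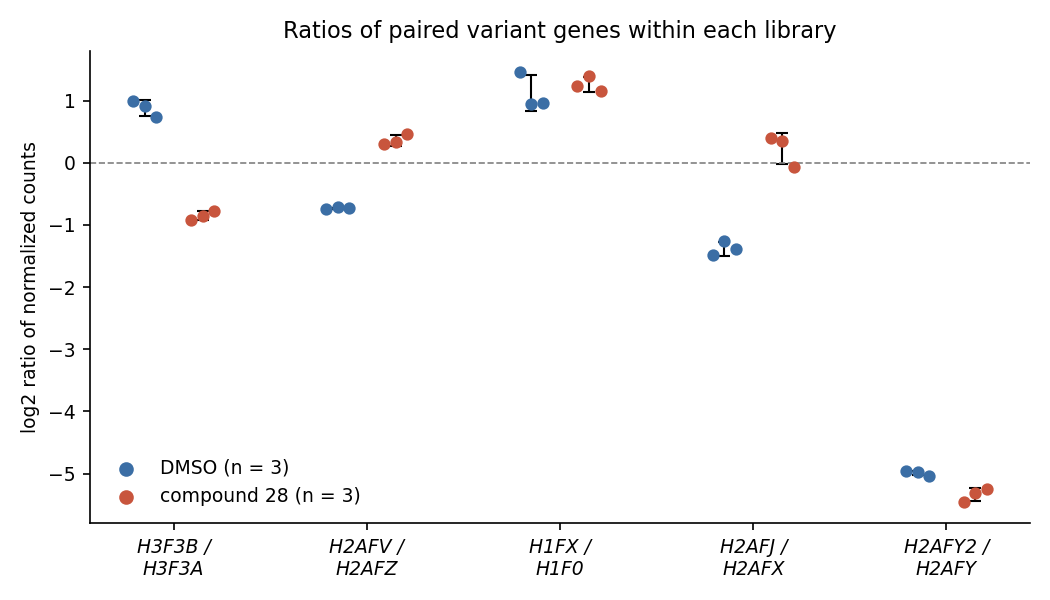
log2 ratio of the normalized counts of 2 variant genes within each library; points are libraries (n = 3 per group) and black bars show the mean ± SD. The H3F3B/H3F3A ratio was lower and the H2AFV/H2AFZ ratio higher in every compound 28 library than in any DMSO library, whereas H1FX/H1F0 overlapped; the dashed line marks equal counts, not equal levels, since transcripts differ in length.

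H2AFX, which encodes the variant phosphorylated by ATM, ATR and DNA-PK at DNA breaks, had the lowest log2 change of the 5 H2A genes. Its normalized counts were 6464, 5395 and 5341 in DMSO and 1799, 1935 and 2262 in compound 28. No library of either group came near the other group. The means were 5733 ± 633 and 1998 ± 238 (SD, n = 3 each), a log2 change of -1.52 (SE 0.11, limma adjusted p 8.8e-07), or 2.87-fold lower. H2AFX (ENSG00000188486, chromosome 11) is transcribed both as a stem-loop and as a polyadenylated mRNA, and a poly(A) selected library follows the latter. H2AFJ (ENSG00000246705, chromosome 12), a variant reported to accumulate in senescent human cells, had normalized counts of 2303, 2247 and 2031 in DMSO and 2378, 2458 and 2165 in compound 28. These overlapped, with means of 2194 ± 143 and 2334 ± 151 (SD, n = 3 each) and a log2 change of 0.09 (SE 0.09, limma adjusted p 0.40). Scaling decided its call, with 0.29 on upper-quartile factors (limma adjusted p 0.025) and -0.36 on library sizes only (limma adjusted p 0.0055). The ratio of H2AFJ to H2AFX was 0.356, 0.416 and 0.380 in DMSO and 1.32, 1.27 and 0.957 in compound 28, a 3.05-fold difference (exact permutation p = 0.1, the smallest possible, 0.125 adjusted over 5 ratios).

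H2AFY, which encodes macroH2A1, had the highest normalized count of the 9 in both groups. Its libraries read 25320, 24831 and 26622 in DMSO and 21547, 20482 and 21044 in compound 28. The groups did not overlap. The means were 25591 ± 926 and 21025 ± 533 (SD, n = 3 each), a log2 change of -0.28 (SE 0.08, limma adjusted p 0.0099), or 1.22-fold lower. The size depended on scaling, from -0.08 with upper-quartile factors (limma adjusted p 0.35) to -0.74 with library sizes only, -1.40 with ribosomal protein and -1.74 with mitochondrial scaling, all 3 called. Without the second compound 28 library it was -0.26 (limma adjusted p 0.051). H2AFY2, the gene of macroH2A2, was lower too, at 804 ± 12.7 in DMSO and 521 ± 31.7 in compound 28 (SD, n = 3 each; log2 change -0.63, SE 0.11, limma adjusted p 0.00033). The ratio of H2AFY2 to H2AFY was 0.0305 to 0.0320 in DMSO and 0.0228 to 0.0264 in compound 28 (exact permutation p = 0.1, the smallest possible, 0.125 adjusted over 5 ratios).

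The linker histone genes had the lowest changes of the 9. H1F0, the gene of H1.0 (ENSG00000189060, chromosome 22), had normalized counts of 1313, 1358 and 1237 in DMSO and 351, 336 and 330 in compound 28, from 1435 to 2268 and 212 to 267 reads. Its compound 28 libraries lay close together and far below DMSO. The means were 1302 ± 61.2 and 339 ± 11.1 (SD, n = 3 each), a log2 change of -1.94 (SE 0.10, limma adjusted p 1.4e-07), or 3.83-fold lower. H1FX, the gene of H1.10, often written H1X (ENSG00000184897, chromosome 3), had normalized counts of 3603, 2613 and 2406 in DMSO and 828, 880 and 731 in compound 28. The first DMSO library was well above the other two, and all 3 were above compound 28. The means were 2874 ± 640 and 813 ± 76.1 (SD, n = 3 each), a log2 change of -1.80 (SE 0.15, limma adjusted p 1.8e-06), or 3.49-fold lower.

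The ratio of H1FX to H1F0 was 2.74, 1.92 and 1.95 in DMSO and 2.36, 2.62 and 2.22 in compound 28, which overlapped (log2 difference 0.14, exact permutation p = 0.6, n = 3 each, 0.6 adjusted over 5 ratios). Unlike H3F3A with H3F3B, these 2 genes encode dissimilar proteins, with 29.8% of the positions of their alignment identical, gaps included. The antisense gene H1FX-AS1 was at 79.9 ± 23.1 in DMSO against 70.0 ± 22.8 in compound 28 (SD, n = 3 each; log2 change -0.20, SE 0.33, limma adjusted p 0.61). The strand setting of the counting is not given in the sources used here, so reads of H1FX and H1FX-AS1 may not be separated. H2AFZ, H2AFY, H3F3A and H3F3B also overlap a gene on the opposite strand in GENCODE 29.

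Among all tested genes, 10.3% had a lower log2 change than H1F0, 11.7% than H1FX and 15.2% than H2AFX. The share was 24.6% for H3F3B, 28.5% for H2AFZ and 41.8% for H2AFY. It was 53.7% for H2AFJ, 60.3% for H2AFV and 73.1% for H3F3A. The variants therefore spread from the lower part of the distribution to its upper part and did not shift as a block. Summed over the 9 genes, the normalized counts were 80730 ± 2209 in DMSO and 64791 ± 650 in compound 28 (SD, n = 3 each), 19.7% lower, and its change was -70.8% to -7.89% over the 6 other scalings. In CPM, which is the scaling on library sizes only, they held 2550 ± 43.3 and 1494 ± 37.7 (SD, n = 3 each), 41.4% lower.

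The choice of scaling moved all changes together, because each scaling applies 1 factor per library. The median log2 change of all tested genes was -0.48 when only library sizes were used, 0.16 when upper quartiles were equalised, -1.47 with 13 mitochondrially encoded mRNAs held constant and -1.13 with 82 ribosomal protein mRNAs held constant. With mitochondrial scaling 9 of the 9 variants were lower, as were 76% of all tested genes, and 9.9% were higher. With ribosomal protein scaling 9 of 9 were lower too, beside 67.9% of all tested genes lower and 12.2% higher. With library sizes only, 1 variant, H3F3A, was higher and 7 lower, beside 23.1% and 50.9% of all tested genes. With upper-quartile factors 3 were higher and 5 lower, beside 41.4% and 31.5%. Relative to the median of all genes, H3F3A stood at 0.78 to 0.80, H2AFV at 0.32 to 0.34, H3F3B at -0.95 to -0.93 and H2AFZ at -0.77 to -0.75 over the 7 scalings. H1F0 stood at -1.92 to -1.90 on that measure. The narrowness of these ranges follows from the 1 factor per library and is no separate result.

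**Figure D3:**
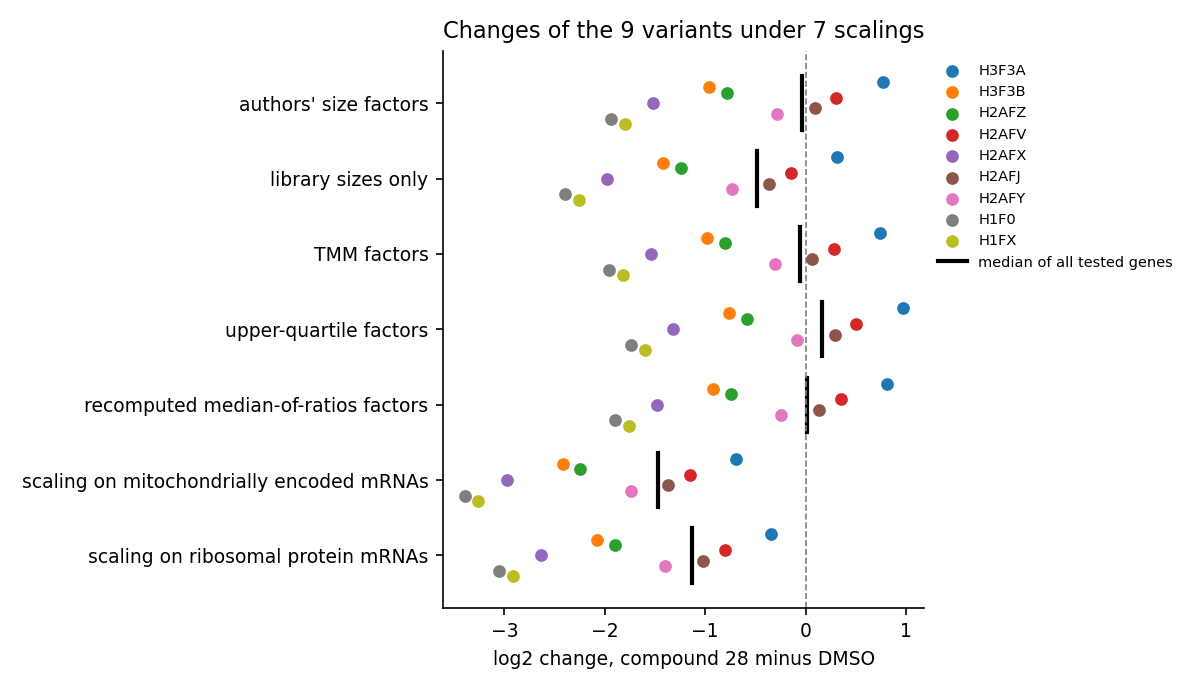
log2 change of each variant (compound 28 minus DMSO, coloured points) under the authors' size factors and 6 other scalings, with the median of all 18278 tested genes as a black bar. The points keep their order and their distance from the bar, while their sign depends on the scaling for H3F3A, H2AFV and H2AFJ.

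Levels of different genes can be set side by side only per length of transcript. As normalized counts per kilobase of the main transcript, H2AFZ was the highest in DMSO at 10888 ± 502, followed by H2AFY at 9176 ± 332 and H2AFV at 8545 ± 356, whose libraries overlapped. H3F3A at 6990 ± 453 and H3F3B at 6213 ± 214 came next. H2AFX at 3552 ± 392 and H2AFJ at 3406 ± 223 overlapped, and H1FX at 1907 ± 425 and H1F0 at 556 ± 26.1 were lowest. In compound 28 H3F3A was the highest at 11873 ± 205 per kilobase, then H2AFV at 10554 ± 214 and H2AFY at 7538 ± 191. H2AFZ stood at 6323 ± 467, H2AFJ at 3624 ± 235 and H3F3B at 3189 ± 119. H2AFX at 1238 ± 147, H1FX at 540 ± 50.5 and H1F0 at 145 ± 4.72 closed the order, with no neighbours overlapping (SD, n = 3 each). H2AFZ stayed first in DMSO, H3F3A first in compound 28 and H1F0 last in both when the length of all annotated exons was used instead, but the order in between changed. H3F3A was above H3F3B in both groups by either length, with overlap in DMSO by the second. H2AFV was above H2AFZ in compound 28 only by the main transcript.

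Some promoters of the variants, but not all, hold motifs that the selection of the genes did not use. Sequence of the 150 bases before the annotated start was taken from RefSeq (GRCh38.p14), which had an entry for 8 of the 9 genes. Promoters are printed below for the H3.3 and H2A.Z pairs, whose members moved apart, and for H2AFX and H1FX. Capitals mark the TATA box letters TATAAA on the gene's strand between -40 and -20, and CCAAT on either strand (ATTGG when read on the other), the letters bound by NF-Y. Both motifs were chosen after these values and promoters had been seen. The start printed for H3F3A is the last of 4 listed, and the regions are as follows: H3F3A chr1:226062566-226062715 (plus strand), H3F3B chr17:75779780-75779929 (minus strand), H2AFV chr7:44848088-44848237 (minus strand), H2AFZ chr4:99950276-99950425 (minus strand), H2AFX chr11:119095466-119095615 (minus strand) and H1FX chr3:129316287-129316436 (minus strand).
H3F3A: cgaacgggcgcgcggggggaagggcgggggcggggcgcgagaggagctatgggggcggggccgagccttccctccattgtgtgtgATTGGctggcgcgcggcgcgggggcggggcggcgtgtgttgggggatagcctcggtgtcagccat
H3F3B: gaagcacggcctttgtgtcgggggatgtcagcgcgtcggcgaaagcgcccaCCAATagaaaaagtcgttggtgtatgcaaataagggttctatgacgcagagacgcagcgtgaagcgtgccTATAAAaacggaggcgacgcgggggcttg
H2AFV: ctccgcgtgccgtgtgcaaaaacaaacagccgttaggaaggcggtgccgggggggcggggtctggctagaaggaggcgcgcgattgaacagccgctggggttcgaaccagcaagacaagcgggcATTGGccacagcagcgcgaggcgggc
H2AFZ: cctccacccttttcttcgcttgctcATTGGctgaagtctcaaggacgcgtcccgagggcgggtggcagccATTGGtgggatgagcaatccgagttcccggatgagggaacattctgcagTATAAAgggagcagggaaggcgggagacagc
H2AFX: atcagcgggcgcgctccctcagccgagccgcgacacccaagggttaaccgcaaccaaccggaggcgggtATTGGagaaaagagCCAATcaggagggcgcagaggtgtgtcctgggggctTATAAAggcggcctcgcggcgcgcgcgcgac
H1FX: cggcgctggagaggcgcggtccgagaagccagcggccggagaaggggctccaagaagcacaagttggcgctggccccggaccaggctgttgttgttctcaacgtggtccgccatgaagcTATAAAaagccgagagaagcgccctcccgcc

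TATAAA stood at -31 to -26 in H2AFZ, H2AFX and H1FX and at -29 to -24 in H3F3B. The letters were in that window in none of the listed starts of H3F3A, H2AFV, H2AFJ and H2AFY. The 4 variants with TATAAA were all lower, with log2 changes of -1.80 to -0.79, and of the 4 without it 2 were higher, 1 lower and 1 not called, with changes of -0.28 to 0.77. TATAAA was in H3F3B and H2AFZ, the falling genes of the H3.3 and H2A.Z pairs. The motif was chosen with these values seen, so this division is no test of it. Of 35116 RefSeq promoters, 2.26% held TATAAA in the window. Across other tested genes, of 257 with the motif 110 were higher and 91 lower, with a median log2 change of 0.12. Of 10942 without it 3586 were higher and 4613 lower, with a median of -0.14. At a mean of at least 5 CPM, 51 were higher and 60 lower of 137 genes with it. That was 37.2% higher and 43.8% lower, against 31.8% and 45.9% of 8096 genes without it. The part of the motif in the changes was not tested. At least 3 CCAAT in either orientation lay in the 250 bases before the start of H2AFZ, H2AFV, H2AFX, H2AFJ and H3F3B, against 2.93% of all promoters. Those 5 variants divided into 1 higher, 3 lower and 1 not called. Among other tested genes with at least 3 CCAAT, 30.4% were higher and 44.3% lower, against 33.1% and 41.9% with fewer. At a mean of at least 5 CPM these shares were 31% and 45.5%, against 32% and 45.9%.

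The variants also differ in exon number, which did not divide their changes cleanly. H2AFX, H2AFJ, H1F0 and H1FX have a main transcript of 1 exon, and 3 of these 4 fell and 1 was not called. The 5 with more exons, 3 in H3F3A, 4 in H3F3B, 5 in H2AFZ and H2AFV and 9 in H2AFY, had 2 higher and 3 lower. The lowest of these 5 log2 changes was -0.96, and those of the 3 single-exon genes called lower were -1.94, -1.80 and -1.52. The single-exon H2AFJ, at 0.09, lay above H3F3B, H2AFZ and H2AFY. Among other tested coding genes, 56.5% of 306 with a single exon were lower and 23.9% higher, with a median log2 change of -0.77. Of 12441 coding genes with more exons 41.1% were lower and 34.1% higher, with a median of -0.11. With the replication-dependent histone genes left out, the other 284 single-exon genes had a median of -0.84. At a mean of at least 5 CPM, with those histone genes kept, 71.7% of 152 single-exon genes were lower and 14.5% higher. Of 9404 genes with more exons at that level, 45.1% were lower and 32.4% higher.

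**Figure D4:**
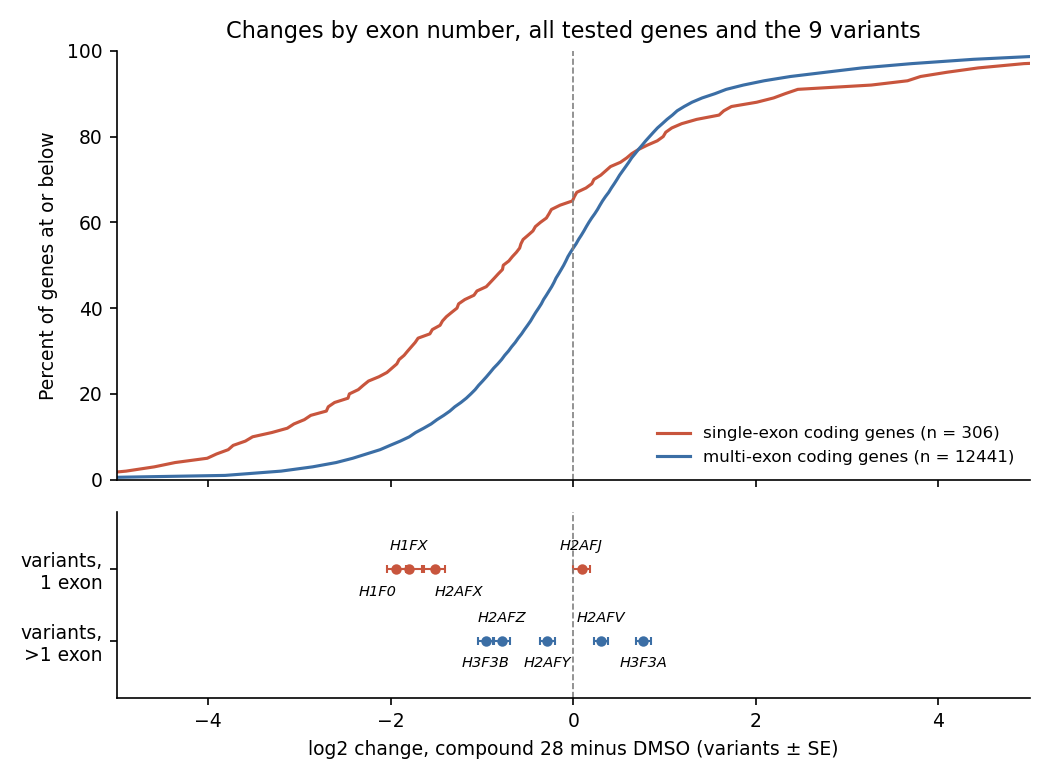
Cumulative percent of tested coding genes, other than the 9 variants, at or below each log2 change (upper panel, single-exon red, multi-exon blue), and the variants by exon number with ± SE (lower panel). Single-exon genes lie to the left over most of the range, and the 3 lowest variants, H1F0, H1FX and H2AFX, have 1 exon.

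Of 11 other genes of replication-independent variants, 7 were in the table and 2 passed the filter. CENPA, the H3 variant of centromeres, had normalized counts of 1314, 1302 and 1537 in DMSO and 341, 280 and 342 in compound 28. It was lower in every compound 28 library, with means of 1384 ± 132 and 321 ± 35.1 (SD, n = 3 each) and a log2 change of -2.11 (SE 0.13, limma adjusted p 2.4e-07). H2AFY2 was the other. The testis genes H2AFB1, H2AFB2, H2AFB3, H3F3C and H1FNT had means of at most 18.5 normalized counts and were not tested. The pseudogene H2AFZP1 was at 7.32 ± 1.41 in DMSO and 27.3 ± 8.97 in compound 28 (SD, n = 3 each; log2 change 1.72, SE 0.41, limma adjusted p 0.0034), and was not called with mitochondrial or ribosomal protein scaling, at 0.37 and 0.69 (limma adjusted p 0.40 and 0.15). H2AFZP3, H2AFZP4, H2AFZP5, H2AFZP6, H3F3AP1 and H3F3BP1 had means of at most 6.11 and were not tested. For comparison, of 64 replication-dependent histone genes in the table, 29 were tested, with 7 higher, 5 lower and a median log2 change of 0.00. Shares over all tested genes were 35.5% higher and 37.3% lower.

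The chaperones, exchange factors and readers that handle the variants numbered 58, and 17 were higher, 27 lower and 14 not called, beside the 35.5% and 37.3% of all tested genes. Their median log2 change was -0.22, and with mitochondrial or ribosomal protein scaling 0 were higher. Of 9 genes for H3.3 deposition, 4 rose and 4 fell under the authors' scaling. ATRX, the remodeller that partners DAXX, had normalized counts of 1961, 2192 and 2639 in DMSO and 4363, 3778 and 4455 in compound 28. The groups were apart, with a log2 change of 0.90 (SE 0.12, limma adjusted p 5.3e-05) that turned to -0.56 and -0.21 with mitochondrial and ribosomal protein scaling. The value with ribosomal protein scaling was not called (limma adjusted p 0.29). UBN1, a subunit of the HIRA complex, was at 0.54 (limma adjusted p 0.00068), at 0.09 with library sizes only (limma adjusted p 0.42) and below 0 with those 2 scalings, and HIRA itself was at 0.14 (limma adjusted p 0.33). ASF1A, which hands H3.3 with H4 to HIRA, went from 1250 ± 51.1 to 516 ± 67.2 (SD, n = 3 each; log2 change -1.28, limma adjusted p 4.5e-06). DAXX was low, reading 40.5, 24.6 and 217 in DMSO and 5.88, 7.55 and 3.11 in compound 28. Its log2 change of -3.30 (SE 0.70, limma adjusted p 0.0015) was -2.39 without the third DMSO library, the highest of the 3.

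**Figure D5:**
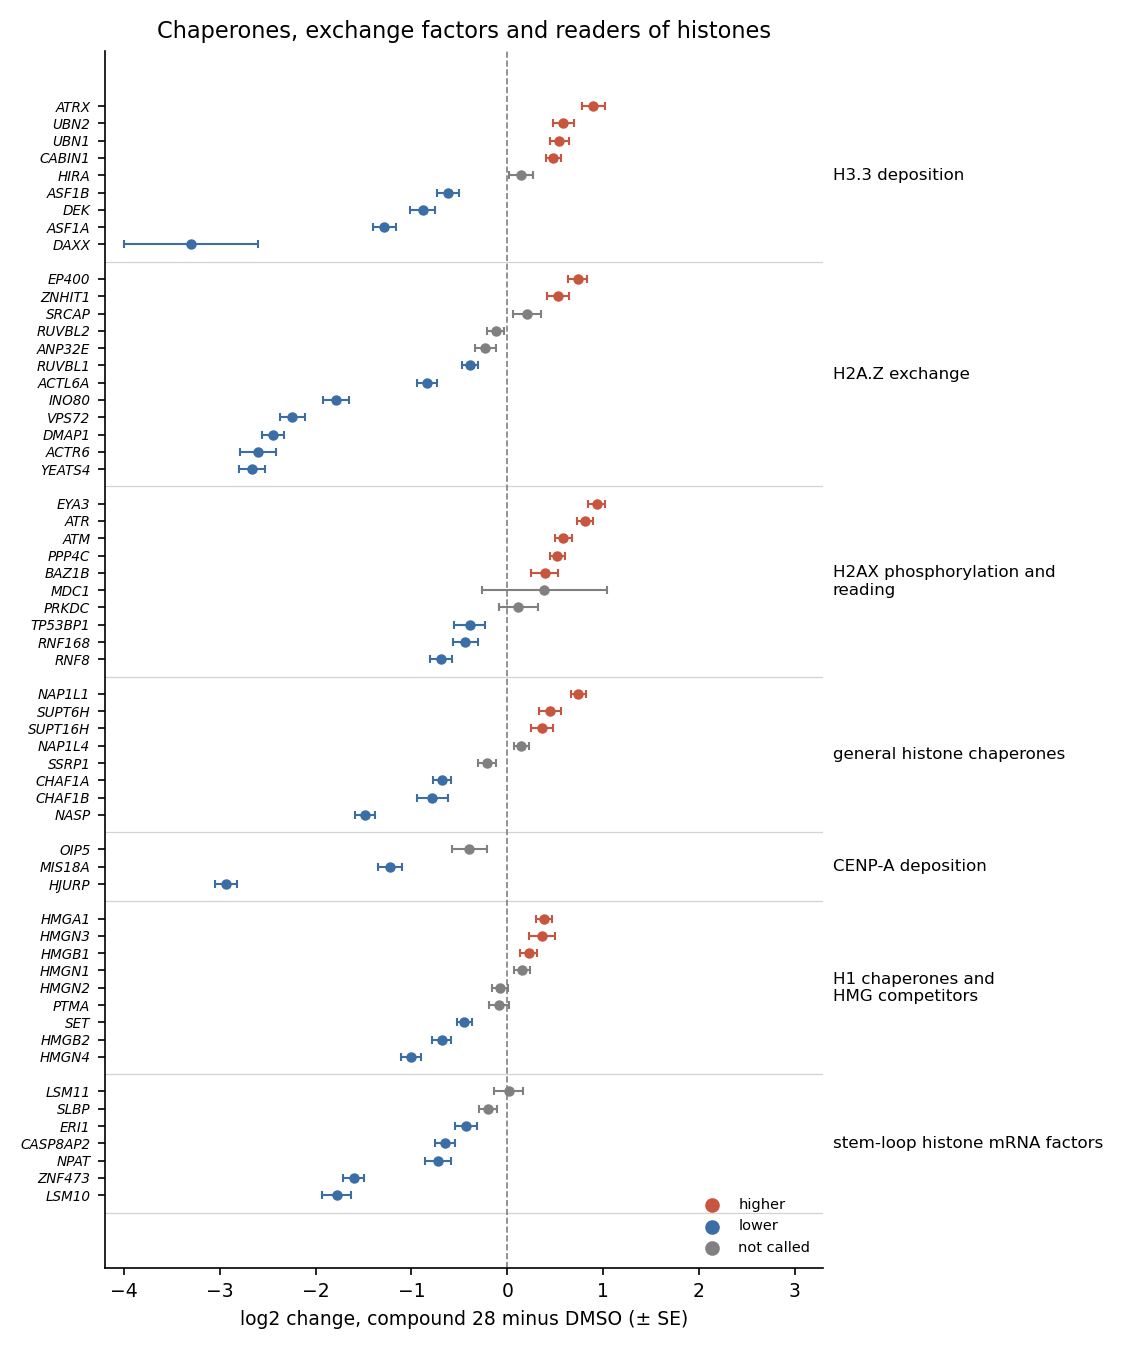
log2 change (compound 28 minus DMSO, authors' scaling) with ± SE for 58 chaperones, exchange factors and readers of histones by role, coloured by call; none is called higher with mitochondrial or ribosomal protein scaling. Genes for H2A.Z exchange and CENP-A deposition include the largest falls, down to -2.66 in YEATS4 and -2.94 in HJURP, apart from DAXX at -3.30.

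Of 12 genes that install or remove H2A.Z through the SRCAP, p400 and INO80 complexes, 2 rose and 7 fell with the authors' scaling, beside 35.5% and 37.3% of all tested genes, with a median log2 change of -0.61, and none rose with mitochondrial or ribosomal protein scaling. YEATS4, the GAS41 subunit, went from 1631 ± 163 to 258 ± 36.1 normalized counts (SD, n = 3 each; log2 change -2.66, SE 0.14, limma adjusted p 1.0e-07). ACTR6 and VPS72, subunits of the SRCAP complex, changed by -2.60 and -2.24 (limma adjusted p 6.7e-07 and 2.2e-07). EP400, the p400 ATPase, was higher at 6111 ± 612 and 10168 ± 826 (SD, n = 3 each; log2 change 0.74, SE 0.10, limma adjusted p 6.2e-05), and at -0.72 and -0.38 with mitochondrial and ribosomal protein scaling.

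Of 10 genes that phosphorylate, dephosphorylate or read H2A.X, 5 rose and 3 fell under the authors' scaling. Among all tested genes 35.5% rose and 37.3% fell. EYA3, a phosphatase of the H2A.X tyrosine, went from 1331 ± 79.6 to 2538 ± 51.0 (SD, n = 3 each; log2 change 0.93, SE 0.09, limma adjusted p 4.4e-06), and was at -0.52 and -0.18 with mitochondrial and ribosomal protein scaling. ATR, a kinase of H2A.X, had a log2 change of 0.81, and -0.65 and -0.30 with those scalings. With ribosomal protein scaling neither EYA3 nor ATR was called (limma adjusted p 0.27 and 0.058). RNF8, the ubiquitin ligase recruited to phosphorylated H2A.X through MDC1, went from 718 ± 42.9 to 444 ± 22.6 (SD, n = 3 each; log2 change -0.69, SE 0.11, limma adjusted p 0.00025).

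General chaperones divided into 3 higher and 3 lower of 8, beside 35.5% higher and 37.3% lower of all tested genes. NAP1L1, a carrier of H2A with H2B, was at 18856 ± 557 in DMSO and 31546 ± 432 in compound 28 (SD, n = 3 each; log2 change 0.74, SE 0.08, limma adjusted p 1.5e-05), and at -0.71 and -0.37 with mitochondrial and ribosomal protein scaling. NASP, which holds soluble H3 with H4, went from 7477 ± 658 to 2668 ± 309 (SD, n = 3 each; log2 change -1.49, SE 0.10, limma adjusted p 6.7e-07). Of 3 genes for CENP-A deposition 2 fell, beside the same 37.3% of all tested genes. HJURP, the chaperone of CENP-A, went from 2369 ± 292 to 307 ± 6.39 (SD, n = 3 each; log2 change -2.94, SE 0.11, limma adjusted p 3.4e-08).

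Of 9 chaperones of H1 and HMG proteins, which compete with H1 for nucleosomes, 3 rose, 3 fell and 3 were not called. The shares over all tested genes were 35.5% higher and 37.3% lower. HMGA1 was at 19523 ± 1105 in DMSO and 25473 ± 1044 in compound 28 (SD, n = 3 each; log2 change 0.38, SE 0.09, limma adjusted p 0.0023), and at -0.07 with library sizes only and -1.07 and -0.73 with mitochondrial and ribosomal protein scaling. With library sizes only HMGA1 was not called (limma adjusted p 0.45). HMGN4 went from 1255 ± 66.8 to 624 ± 50.1 (SD, n = 3 each; log2 change -1.01, SE 0.11, limma adjusted p 1.0e-05). Of 7 factors listed for the transcription, processing or binding of replicative stem-loop histone mRNAs, NPAT among them, 5 fell, beside 37.3% of all tested genes. LSM10, of the U7 particle, changed from 1013 ± 94.3 to 297 ± 59.0 (SD, n = 3 each; log2 change -1.78, SE 0.15, limma adjusted p 2.5e-06), and SLBP, the stem-loop binding protein, was at -0.20 (limma adjusted p 0.079). SLBP was called lower with library sizes only (-0.65, limma adjusted p 8.3e-05) and with mitochondrial and ribosomal protein scaling (-1.65 and -1.31).

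Genes with the pattern most like the highest and the lowest variant were found among 9643 coding genes by the Euclidean distance of centred log2 values over the 6 libraries. Nearest to H3F3A were AHRR at a distance of 0.0799, RIOK3 at 0.0805 and HLA-DRB1 at 0.0840, with log2 changes of 0.76, 0.70 and 0.80 that were below 0 with mitochondrial and ribosomal protein scaling. HLA-DRB1 was not called with ribosomal protein scaling (limma adjusted p 0.14). Nearest to H1F0 were EXOSC8 at 0.0976, SRSF8 at 0.118 and CD58 at 0.133, with log2 changes of -1.92, -1.91 and -1.95.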

How the data were processed

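RNA was sequenced in 6 libraries, 3 per group, grouped by their titles. The tools named in the submitters' processing notes are fastp, HISAT2, StringTie, SAMtools and HTSeq, and the builds GRCh37 and hg19, with no versions or settings. The deposited table gives a normalized signal per gene, a read count divided by 1 size factor per library; 100% of values were whole reads within 0.01 read, so read counts were recovered. Further columns of the authors hold, per the file headers, log2 fold changes and their errors, a test score, and raw and adjusted p-values; the log2 changes are printed where named, and the scores and deposited p-values are not printed. The deposited mean signal was not used.

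Of 32327 rows, 5 HTSeq counters, holding 30.4% to 46.9% of a library, were left out. Genes passing edgeR's expression filter on recovered reads (18278) were fitted with limma 3.58.1 (trend) in R 4.3.3 on log2(normalized count + 1), which understates changes of low genes; edgeR 4.0.16 and DESeq2 1.42.0 on recovered reads were alternatives. The count test by edgeR called 6385 genes higher and 6893 lower, and DESeq2 6667 and 6464. Ratios within libraries were tested by exact permutation with scipy 1.17.1. The fit was also run on simulated counts with few genes changed, equally up and down, so that run cannot inform the choice of scaling. GENCODE 29 (GRCh38), matched by symbol to 95.8% of rows, gave lengths, exons and coding sequences. Members and gene lists were chosen with earlier results of these data known. Named genes are the members, other variants in the table, the called gene with the largest rise and fall in each role with at least 5 CPM, pseudogenes and antisense genes, and the 3 nearest patterns; HIRA, UBN1, DAXX, ACTR6, VPS72, ATR and SLBP were added from the lists after their values were seen. Replicate numbers are shared by the groups, but same-numbered libraries did not deviate together in every pair (correlations -0.03, 0.13 and 0.09), so no pairing was used. Some genes of the lists are not reported here.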

Additional observations from a re-analysis of the deposited data

Results flagged for a closer look

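Of the 5 counters of reads outside genes, which the comparisons do not use, 2 were higher in every compound 28 library than in any DMSO library. Alignments that were not unique made up 20.8% ± 3.96 of all counted alignments in compound 28 and 11.2% ± 0.277 in DMSO (SD, n = 3 each). Reads that were not aligned made up 1.72% ± 0.324 in compound 28 and 1.10% ± 0.0386 in DMSO (SD, n = 3 each). Among the variants, H3F3A shares the most sequence with other transcripts, and the part of these reads in its value was not tested.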

How the results depend on the processing

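The falls of H1F0, H1FX, H2AFX, H3F3B and H2AFZ kept their direction and call under all 19 alternatives, with log2 changes of -3.39 to -1.74, -3.26 to -1.60, -2.98 to -1.32, -2.42 to -0.76 and -2.24 to -0.59. TMM or recomputed median-of-ratios factors, pseudocounts of 0.5 and 8, no filter, edgeR and DESeq2 changed no call of a named gene. With library sizes only, 4218 genes, 1 variant and 5 chaperones were higher, and reversed values were -0.15 for H2AFV, -0.36 for H2AFJ, -0.31 for HIRA and -0.069 for HMGA1, while UBN1 (0.09) and HLA-DRB1 (0.35) lost their call and SLBP (-0.65) gained one. With mitochondrial scaling, 1810 genes were higher and 13885 lower, 0 variants and 0 chaperones were higher, and 57 chaperones were lower; with ribosomal protein scaling these were 2236, 12417, 0, 0 and 54. Under these 2 scalings, in that order, log2 changes reversed to -0.69 and -0.35 for H3F3A, -1.15 and -0.81 for H2AFV, -1.37 and -1.02 for H2AFJ, -0.70 and -0.35 for AHRR, -0.65 and -0.30 for ATR, -0.56 and -0.21 for ATRX, -0.72 and -0.38 for EP400, -0.52 and -0.18 for EYA3, -0.76 and -0.42 for H3F3AP4, -1.07 and -0.73 for H3F3AP6, -1.31 and -0.97 for HIRA, -0.65 and -0.31 for HLA-DRB1, -1.07 and -0.73 for HMGA1, -0.71 and -0.37 for NAP1L1, -0.75 and -0.41 for RIOK3 and -0.91 and -0.57 for UBN1. Of the reversed values, those of ATRX, EYA3, HLA-DRB1 and ATR were not called with ribosomal protein scaling (limma adjusted p 0.29, 0.27, 0.14 and 0.058). Those of H2AFV and HMGA1 were not called with library sizes only (limma adjusted p 0.097 and 0.45). Mitochondrial and ribosomal protein scaling also ended the call of H2AFZP1 and gave calls to SLBP and H1FX-AS1. With upper-quartile factors H2AFY lost its call and H2AFJ and HIRA gained one, and the sum of the H3.3 genes turned to 6.80% higher, an alternative chosen after seeing the data. The scalings differ by 1 constant per library, which moves all genes together. A minimum mean of 5 CPM left 3624 genes higher, with fewer genes tested. Leaving out each library in turn gave 6030 to 6511 genes higher and 6205 to 6654 lower. With the replicate number as a block, 6511 genes were higher and 6769 lower, and no call of a named gene changed. The numbers are not shown to pair the samples. At this depth the lowest variant, H1F0, had at least 212 reads in each library, so depth limits the untested variants with few reads rather than the 9.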
